A study of Mus musculus with 8 samples.

Results

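The genes described here encode the ADAM and ADAMTS metalloproteinases of the mouse, taken as every protein-coding gene on chromosomes 1 to 19 whose symbol is Adam, Adamts or Adamtsl followed by a digit. Symbols and positions were taken from RefSeq genes of GRCm38.p6 (mm10), which gave 58 of 20558 genes: 34 Adam, 19 Adamts and 5 Adamtsl genes. They were set against 1 list of binding sites (peaks) of RelA, the p65 subunit of the transcription factor NF-kB. ChIP-seq, the sequencing of DNA recovered with an antibody to RelA, was done on primary fibroblasts from embryos of wild-type C57BL/6 mice. The cells were held in low serum overnight and treated with 10 ng/ml TNF, a cytokine that activates NF-kB. RelA ChIP libraries were made at 0, 0.5 and 3 h of TNF, 2 per time, beside 2 libraries of input DNA. The list holds a start and an end for each peak and no height, score or sample. No comparison of the times and no spread between replicates could therefore be given, the depth behind a peak was unknown, and no test was run on the counts. The fibroblast identity of the cells could not be checked either, since no transcript level was measured.

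ADAM proteins are membrane-bound proteases that cut the extracellular part off other membrane proteins, a process called shedding, and many of them are found mainly in the testis, where they act in sperm maturation and fertilisation. ADAMTS proteins are secreted proteases of the extracellular matrix that process proteoglycans, procollagens and other matrix proteins, and ADAMTS-like proteins share their domains but lack the protease. ADAM17 is known as the enzyme that releases TNF from the cell surface, and matrix-degrading ADAMTS proteases are known for the loss of aggrecan from inflamed cartilage.

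RelA peaks lay at or near 13 of 19 Adamts genes, 8 of 34 Adam genes and 3 of 5 Adamtsl genes, and at 2 of the 22 Adam genes of testis and epididymis. A peak centre lay inside the gene or within 10 kb of its ends in 24 of 58 genes (41.4%, Wilson 95% interval 29.6 to 54.2%), beside 23.8% of all protein-coding genes on the same chromosomes. Within 50 kb the count was 35 of 58 (60.3%), beside 44.5% of all. Long genes offer more sequence to a peak, and the median length was 36.8 kb for the 58 genes and 17.6 kb for all genes. Each gene was therefore also set beside all other protein-coding genes with a length within a factor of 1.2 of its own. The shares of those genes that had a peak sum to 19 genes at 10 kb and 30 genes at 50 kb, so the observed counts were 1.27 and 1.16 times those of genes of similar length. At 10 kb this sum lies inside the counting interval of the observed share (32.7% against 29.6 to 54.2%). The intervals cover counting error only, and neighbouring genes that share a peak are not independent. The median distance from the gene to the nearest peak centre, counted as 0 for a peak inside, was 26.1 kb for the 58 genes and 64.5 kb for all genes. These medians were not matched for length, and longer genes come out nearer by this measure.

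The Adam share was lower than the Adamts share, and much of the gap came with the testis and epididymis genes. A peak centre lay inside or within 10 kb of 8 of 34 Adam genes (23.5%, Wilson 95% interval 12.4 to 40.0%) and of 13 of 19 Adamts genes (68.4%, 46.0 to 84.6%). Adam minus Adamts was -44.9 percentage points, with an interval built from the Wilson bounds of -64.5 to -17.1. Without the testis and epididymis list, 6 of 12 Adam genes (50%, 25.4 to 74.6%) had a peak, and the difference was -18.4 points, with an interval of -47.9 to 14.9 that includes 0. Genes of the same lengths as the Adam genes would give 9.05 genes, and those of the same lengths as the Adamts genes 7.89, ratios of 0.884 and 1.65. Part of the contrast goes with length, since the median Adam gene measured 17.6 kb and the median Adamts gene 114 kb, and after subtracting each subfamily's own genes of similar length the difference was -30 points. Among genes under 50 kb, 1 of 21 Adam genes and 4 of 8 Adamts genes had a peak within 10 kb, where similar lengths give 3.63 and 1.80 genes. Among those of 50 kb or more the counts were 7 of 13 and 9 of 11, where similar lengths give 5.42 and 6.08. Most of the 21 shorter Adam genes are on the testis and epididymis list. Outside it are only Adam8, Adam11, Adam15 and Adam33, of which Adam8 had a peak within 10 kb. The split by length therefore does not separate subfamily from that list. At 50 kb, 15 of 34 Adam genes (44.1%) and 17 of 19 Adamts genes (89.5%) had a peak, with 16.4 and 10.7 genes from similar lengths. The Adamtsl genes, 3 of 5 at 10 kb where similar lengths give 2.03, were too few to place.

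**Figure D1:**
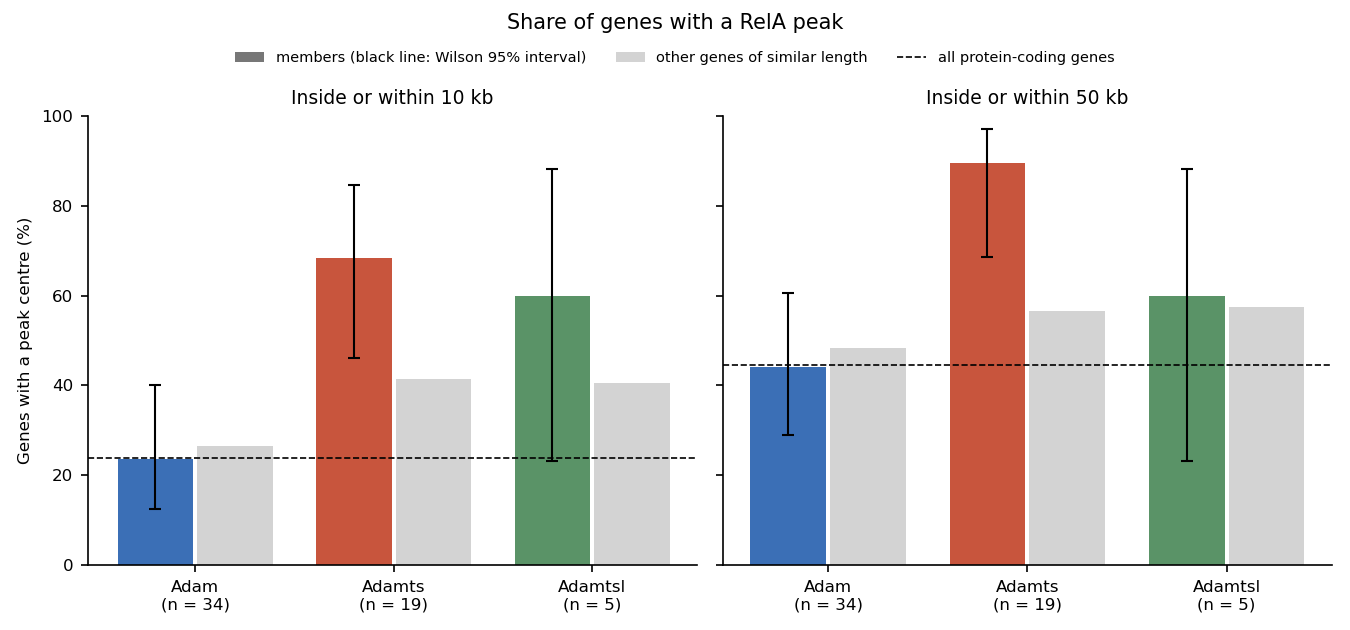
Percent of Adam, Adamts and Adamtsl genes with a RelA peak centre inside or within 10 kb (left panel) or 50 kb (right panel), as coloured bars with Wilson 95% intervals as black lines. Grey bars give the percent among other genes of similar length and the dashed line that of all protein-coding genes (23.8% and 44.5%). The lower ends of the Adamts intervals (46.0% and 68.6%) lie above their grey bars (41.5% and 56.5%), and the Adam bars (23.5% and 44.1%) stand slightly below theirs. The intervals cover counting error only and are no test, and some neighbouring genes share peaks within 50 kb.

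Most of the peaks lay inside the genes, at a share close to that of all peaks near coding genes, and many lay far from gene ends. A peak was centred inside 20 of 58 genes (34.5%), beside 15% of all genes, and similar lengths give 14.3 genes. The 24 genes had 49 different peaks within 10 kb, of which 39 were centred inside a member. Inside any coding gene lay 41 of them (83.7%), beside 78.5% of all 5980 autosomal peaks near a coding gene. Few of the 49 peaks lay at gene ends, where promoters lie. Within 1 kb of an end of any coding gene lay 3 of the 49 peaks (6.12%), whereas 20.4% of all peaks near coding genes lay that close to an end. That comparison of peaks was not matched for gene length. One of the 3 was at the end of Spef1l, next to Adam8. The other 2 were at ends of Adamts4 and Adamts6, so that 2 of 58 genes (3.45%) had a peak at an end, beside 6.58% of all genes, and similar lengths give 4.15 genes. Within 2 kb of an end, Adamts7 and Adamtsl4 join Adamts4 and Adamts6. The RefSeq promoter table places a start site for 32 of the 58 genes. The 26 without one include Adamts4, Adamts6 and Adamts7, so whether the peaks at their ends lie at a start was not tested. None of the 32 had a peak centre within 1 kb of it, beside 6.84% of all coding genes with a listed start, and none of their 34 listed promoters, 300 bases each, overlapped a peak. Within 5 kb there were 2 genes, beside 10.1% of all: Adamtsl4 (1.85 kb) and Adam17 (3.25 kb). The next was Adamts18 (7.61 kb). Of the peaks inside genes with a listed start, 20 in number, the median distance to the start was 58.1 kb and the range 3.25 to 248 kb. Such distances grow with gene length, and none was computed for genes of similar length. Inside peaks numbered 12 in 1821 kb of Adam genes, 20 in 2332 kb of Adamts genes and 7 in 1244 kb of Adamtsl genes, or 0.659, 0.858 and 0.563 per 100 kb. All coding genes had 0.480 per 100 kb, and those of 100 kb or more had 0.433. The 49 peaks had a median width of 686 bp (360 to 1054 bp), and all autosomal peaks one of 687 bp.

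**Figure D2:**
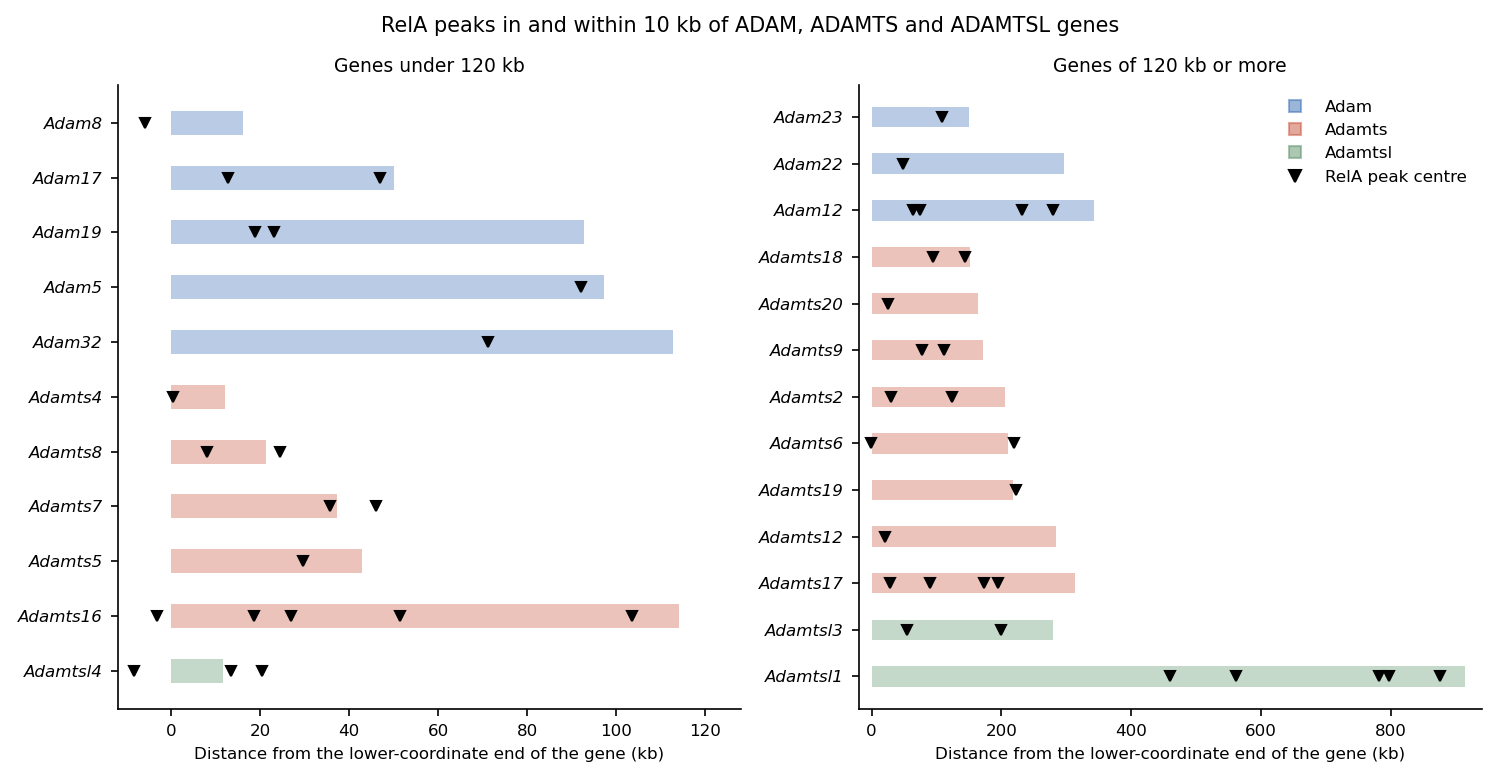
Position of RelA peak centres (triangles) along the 24 genes with a peak inside or within 10 kb, each drawn from its lower-coordinate end in kb, with Adam genes in blue, Adamts genes in red and Adamtsl genes in green. Genes under 120 kb are on the left and longer ones on the right, on a different scale. Of the 49 peaks, 39 sit inside the genes, and 1 peak each of Adamts4 and Adamts6 sits within 1 kb of an end.

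The promoters below are shown because they are the listed starts closest to a peak (Adamtsl4 and Adam17), the member promoter with kappaB matches at 2 neighbouring positions (Adam19), and 2 promoters of neighbouring genes that lie under peaks within 50 kb of members (Cpsf3, near Adam17, and Slc2a6, near Adamts13). This choice was made after the values were seen. Promoters of Itgb1bp1, near Adam17, and of Mindy2 and Gm31872, near Adam10, also lie under such peaks and are not printed. Among these, Gm31872 has a kappaB match under the peak, and Itgb1bp1 and Mindy2 have none. They come from RefSeq, build GRCm38.p6, and run 5′ to 3′ in the direction of the gene, from 250 bases before the start site to 50 bases into the gene. The windows are chr3:95687868-95688167 on the minus strand for Adamtsl4, chr12:21373583-21373882 on the minus strand for Adam17 and chr11:46055734-46056033 on the plus strand for the second of 3 listed starts of Adam19. Those of the neighbours are chr12:21286047-21286346 on the plus strand for Cpsf3 and chr2:27027949-27028248 on the minus strand for Slc2a6. Capitals mark matches to the kappaB consensus, read on both strands.
Adamtsl4: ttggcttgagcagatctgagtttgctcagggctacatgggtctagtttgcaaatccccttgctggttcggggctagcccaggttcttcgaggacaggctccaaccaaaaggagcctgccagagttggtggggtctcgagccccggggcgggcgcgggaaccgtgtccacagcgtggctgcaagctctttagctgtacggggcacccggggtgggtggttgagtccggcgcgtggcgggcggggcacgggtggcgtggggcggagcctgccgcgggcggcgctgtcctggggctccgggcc
Adam17: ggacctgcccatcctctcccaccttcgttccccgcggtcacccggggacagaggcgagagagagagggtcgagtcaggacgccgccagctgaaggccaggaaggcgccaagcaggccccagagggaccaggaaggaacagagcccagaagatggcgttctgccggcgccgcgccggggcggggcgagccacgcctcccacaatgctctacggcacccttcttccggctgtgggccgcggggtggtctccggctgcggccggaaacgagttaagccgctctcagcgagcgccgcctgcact
Adam19: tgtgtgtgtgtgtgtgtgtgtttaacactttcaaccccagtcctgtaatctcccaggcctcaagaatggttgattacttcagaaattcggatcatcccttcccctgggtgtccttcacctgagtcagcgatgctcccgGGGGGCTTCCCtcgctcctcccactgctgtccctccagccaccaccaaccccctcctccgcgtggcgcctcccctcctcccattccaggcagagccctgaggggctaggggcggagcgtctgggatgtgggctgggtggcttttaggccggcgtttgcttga
Cpsf3: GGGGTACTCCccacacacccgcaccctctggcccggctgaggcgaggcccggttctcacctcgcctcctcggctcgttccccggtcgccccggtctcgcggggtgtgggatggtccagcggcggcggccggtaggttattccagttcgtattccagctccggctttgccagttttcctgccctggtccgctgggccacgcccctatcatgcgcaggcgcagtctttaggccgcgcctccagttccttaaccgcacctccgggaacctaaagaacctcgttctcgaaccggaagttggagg
Slc2a6: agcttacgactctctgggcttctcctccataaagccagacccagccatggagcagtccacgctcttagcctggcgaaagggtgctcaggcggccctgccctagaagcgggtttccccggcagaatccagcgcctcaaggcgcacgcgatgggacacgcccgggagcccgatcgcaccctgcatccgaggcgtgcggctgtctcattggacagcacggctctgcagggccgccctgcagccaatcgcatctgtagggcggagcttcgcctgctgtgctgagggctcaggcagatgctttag

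A kappaB consensus match stood in 6 of the 34 member promoters, beside 8.46% of the 32851 promoters in the table. The 6 genes were Adam19, Adam1b, Adamts9, Adamts13, Adamts20 and Adamtsl2. In Adam19 the matches are GGGGGCTTCC and GGGGCTTCCC, shifted by 1 base, and begin 112 and 111 bases before this start site. The same promoter holds TGAGTCA, a match to the AP-1 motif TGANTCA found in 5 of 34 member promoters and 7.81% of all. The nearest peak to this start lay 17.3 kb inside the gene, and the kappaB matches of Adam1b, Adamts9, Adamts13, Adamts20 and Adamtsl2 were likewise not under a peak. The Cpsf3 promoter lies whole under the peak and has a kappaB match, GGGGTACTCC, at its first base. The Slc2a6 promoter also lies whole under its peak and has no match. The sequence under the peaks inside the members was not used here.

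Among the broadly expressed ADAM proteases, which include the main sheddases, 4 of 9 genes had a peak within 10 kb, where similar lengths give 2.98, and 7 of 9 within 50 kb, where they give 4.74. Adam17 (chromosome 12, positions 21323509 to 21373632) had 2 peaks inside. One peak spanned 21370041 to 21370719, centred 3.25 kb into the gene from its start, and the other spanned 21335680 to 21336733, 37.4 kb from the start and 1054 bp wide, the widest of the 49. Of the other genes as long as Adam17, 5.92% had as many peaks within 10 kb. Such shares are no test. Low ones, here and below, are extremes among all members with a peak within 10 kb. Adam19 (chromosome 11, 46054502 to 46147347), which encodes meltrin beta, a sheddase of growth factor precursors of the neuregulin family, had inside peaks at 46072899 to 46073760 and 46077493 to 46077914, 4.37 kb apart, and 2 more between 10 and 50 kb outside. Adam12 (chromosome 7, 133883199 to 134225097), for meltrin alpha, a protease of muscle and bone-forming mesenchyme, had 4 inside peaks, 61.9 to 111 kb from the nearer end. As many were found in 14.3% of genes of its length. For Adam19 the share with as many within 10 kb was 15.8%. Adam8, a protease of leukocytes and other activated cells, had its only peak 5.79 kb outside, and that peak was centred inside the neighbouring gene Spef1l. Adam10, the sheddase that cuts Notch receptors, had none within 10 kb although it spans 101 kb, and 43.7% of genes of its length had one. Its nearest peak lay 21.4 kb away, in Mindy2 and 0.300 kb from that gene's end. Adam9 (42.2 kb) and Adam15 (45.2 kb) had peaks within 50 kb, and Adam33 (189 kb) and Adam28 (433 kb) had none. The Adam9 peak was centred inside the neighbouring testis-list gene Adam32, and the Adam15 peak lay 1.56 kb from an end of Zbtb7b.

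The list of ADAM proteins that lack protease activity and act in the nervous system holds 3 genes, 2 of them with a peak within 10 kb where similar lengths give 1.36. There ADAM22 and ADAM23 are receptors of the secreted protein LGI1. Adam22 (chromosome 5, 296 kb long) and Adam23 (chromosome 1, 150 kb long) each had 1 inside peak, 47.8 and 41.4 kb from the nearer end. Genes of their lengths had a peak in 65.6% and 50.2% of cases, so these were near the usual share. Adam11 had its nearest peak 39.5 kb away, 0.114 kb from the end of the connexin gene Gjc1.

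Of the 22 testis and epididymis Adam genes, 2 had a peak within 10 kb and 5 within 50 kb, where similar lengths give 4.71 and 9.92. Adam5 had a 488 bp peak inside, 5.27 kb from its end, and Adam32, next to it on chromosome 8, a 974 bp peak inside, 41.5 kb from its end. Adam24 (13.6 kb), Adam39 (31.6 kb) and Adam2 (46.4 kb), the last for fertilin beta of the sperm surface, had peaks farther out. The remaining 17 genes had none within 50 kb, and the median distance of the list was 133 kb. They were Adam1a, Adam1b, Adam3, Adam4, Adam6a, Adam6b, Adam7, Adam18, Adam20, Adam21, Adam25, Adam26a, Adam26b, Adam29, Adam30, Adam34 and Adam34l. The most distant were Adam26b (567 kb), Adam7 (555 kb), Adam26a (518 kb) and Adam29 (460 kb). Of the 58 genes, 16 stand in 5 clusters of neighbours, most of them testis genes. Taking members within 50 kb of each other as 1 locus left 47 loci, 23 of them with a peak within 10 kb. A locus counted if any of its genes had a peak, but its comparison share was the mean over its genes. The resulting ratio of 1.42 is therefore biased upward and cannot be set beside the 1.27 of single genes. The 12 Adam genes outside the list gave 6 with a peak within 10 kb, where similar lengths give 4.34.

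**Figure D3:**
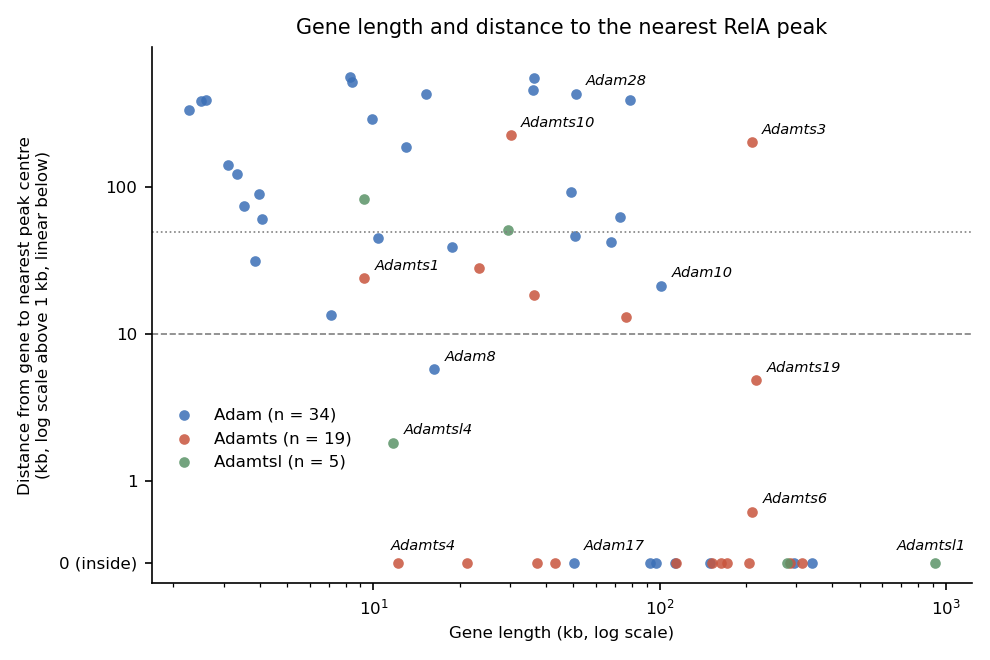
Gene length in kb (log scale) against the distance in kb from the gene to the nearest RelA peak centre (0 for a peak inside; log scale above 1 kb) for the 34 Adam (blue), 19 Adamts (red) and 5 Adamtsl (green) genes. The dashed line marks 10 kb and the dotted line 50 kb. Most Adam points under 50 kb in length lie above the dotted line, and 2 Adamts genes, Adamts10 and Adamts3, lie above it.

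The proteoglycanases, ADAMTS proteases that cut aggrecan and versican, were the largest Adamts list. All 7 genes had a peak within 50 kb and 5 within 10 kb, where similar lengths give 3.51 and 2.13. Adamts4 (chromosome 1, 171250129 to 171262267), an aggrecanase gene of 12.1 kb, had a 937 bp peak from 171250074 to 171251010 that runs across its lower-coordinate end, with its centre 0.413 kb inside. Adamts5, the other main aggrecanase, had an 829 bp peak inside, 13.3 kb from its end. Adamts1, which encodes an inhibitor of angiogenesis and lies next to it on chromosome 16, had none within 10 kb. A 1068 bp peak from 85826574 to 85827641 lay between the neighbours, 24.0 kb from Adamts1 and 31.0 kb from Adamts5. Adamts8 had 1 peak inside and another 3.15 kb outside, and 4 within 50 kb. As many as 2 within 10 kb were found in 3.64% of genes of its length. The same pair lay 28.2 and 44.5 kb from Adamts15, its neighbour on chromosome 9. Adamts9 had 2 inside peaks of 837 and 945 bp, and Adamts20, its closest relative, had 1 of 804 bp. Apart from Adamts8, listed genes with a peak within 10 kb were less unusual for their length. The shares with as many ran from 19.1% (Adamts4) to 51.7% (Adamts20).

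The 3 procollagen N-proteinases, which trim the amino-terminal propeptide of fibrillar procollagens, gave 1 gene within 10 kb where similar lengths give 1.55. Adamts2 had 2 inside peaks, 30.4 and 124 kb from its start. Adamts14 had its nearest peak 13.1 kb from its start, 685 bp wide and 11.2 kb from the perforin gene Prf1. Adamts3, 210 kb long, had none within 203 kb, although 60.6% of genes of its length had a peak within 10 kb. Both genes for proteases of the cartilage protein COMP had peaks: Adamts7 had an 859 bp peak inside, 1.41 kb from its end, and another 8.82 kb outside that is centred in Tbc1d2b, and Adamts12 had a 961 bp peak 20.3 kb from its start. Of the 2 genes linked to fibrillin microfibrils, Adamts6 had an 838 bp peak just outside an end, at 104285473 to 104286310 on chromosome 13, and another 9.59 kb beyond the other end, and Adamts10 lay 226 kb from a peak. Adamts13, which encodes the protease of von Willebrand factor, had its nearest peak 18.4 kb away. That 1603 bp peak was centred 0.003 kb from the end of the glucose transporter gene Slc2a6, whose promoter is printed above. The shares of similar-length genes with as many peaks within 10 kb were 4.61% for Adamts7 and 31.7% for Adamts2. They were 33.3% for Adamts6 and 64.2% for Adamts12.

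The 4 remaining Adamts genes all had a peak within 10 kb, where similar lengths give 2.23. Adamts16 (chromosome 13, 70727798 to 70841845) had 5, the most of any Adamts gene, with 4 of them inside and 1 at 3.07 kb outside. Of the genes as long as Adamts16, 0.659% had as many, a low extreme among the members with a peak within 10 kb. The nearest pair of its peaks were 8.29 kb apart, and no other protein-coding gene end lay within 86.9 kb of any of them. Adamts17 had 4 inside peaks, between 66867891 and 67034836 on chromosome 7, as many as 11.9% of genes of its length. Adamts18 had 2 inside peaks, 7.61 and 56.9 kb from its start, as many within 10 kb as 21.7% of genes of its length. Adamts19 had a single 512 bp peak 4.86 kb outside, which lay closer to the end of Minar2, at 3.64 kb. A peak within 10 kb was found in 64.0% of genes as long as Adamts19.

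The ADAMTS-like genes encode matrix proteins without a protease domain, some of which bind fibrillin microfibrils. Adamtsl4, a gene of 11.7 kb on chromosome 3 linked to fibrillin in the eye, had 3 peaks within 10 kb and 5 within 50 kb, none of them inside. Of genes of its length, 0.499% had as many within 10 kb, the lowest such share among the members with a peak. The closest, 360 bp and the narrowest of the 49, lay 1.85 kb from the start site, and others lay 8.20 and 8.69 kb from the gene. The peak at 8.20 kb lay nearer to an end of Mcl1, a survival gene, at 4.82 kb. Of the other 2, one lay 25.4 kb away, on the far side of Mcl1, and the other 46.3 kb away, inside the matrix gene Ecm1 and 0.110 kb from its end. Adamtsl1, the longest of the 58 genes at 915 kb, had 5 inside peaks, as many as 26.3% of genes of its length, all of them in the part from 50.2% to 95.6% of the gene counted from its lower-coordinate end. Adamtsl3 had 2 inside peaks, as many within 10 kb as 37.7% of genes of its length. Adamtsl2 (51.3 kb), just beyond the 50 kb window, and Adamtsl5 (82.8 kb) had none.

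**Figure D4:**
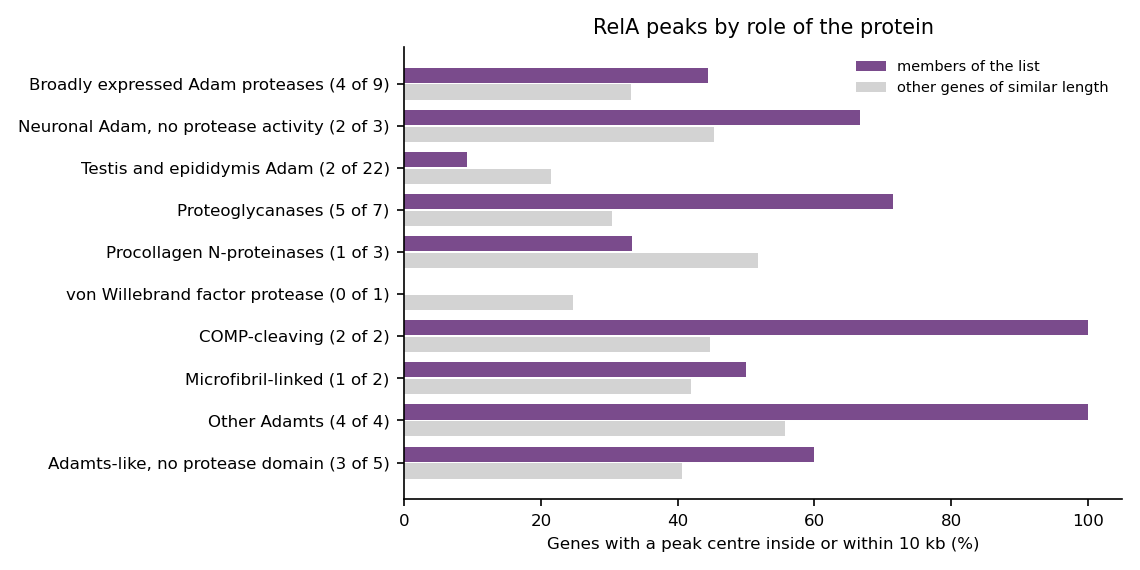
Percent of the genes in each role list with a RelA peak centre inside or within 10 kb (purple), above the percent among other genes of similar length (grey), with the count in brackets. The testis and epididymis (2 of 22), procollagen (1 of 3) and von Willebrand factor (0 of 1) lists stand below the grey bar and the other lists above it, most of them holding 5 genes or fewer.

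Genes for the partners of these proteases were counted from lists of 53 symbols, of which 50 lie on chromosomes 1 to 19 as coding genes (Timp1, L1cam and Bgn were not matched there). In all, 28 of 50 had a peak within 10 kb, where similar lengths give 14.5 and the share of all genes is 23.8%. These lists were written with earlier results of the data known. Of the inhibitors, Timp2, Timp3 and Reck had inside peaks and Timp4 had none, 3 of 4 where similar lengths give 1.08. Genes for the maturation and transport of ADAM10 and ADAM17 had a peak in 5 of 10 cases, where similar lengths give 2.46. They were Rhbdf1 (0.688 kb from its end) and Rhbdf2 (5.57 kb), for the iRhoms that carry ADAM17 to the surface, Frmd8 (0.767 kb), which stabilises that complex, and Tspan5 and Tspan14 (0.275 kb), for tetraspanins that guide ADAM10. Membrane substrates had a peak in 14 of 21 cases, where similar lengths give 5.97. Peaks lay within 0.2 kb of an end in Tnf (0.186 kb), Cxcl16 (0.162 kb), Vcam1 (0.105 kb), Icam1 (0.150 kb), Sdc4 (0.102 kb), Btc (0.114 kb) and Notch2 (0.054 kb), and farther off in Cx3cl1, Cd44, App, Cdh1, Cdh2, Sdc1 and Tnfrsf1b. Several of these are known NF-kB targets. The membrane substrate genes Tnfrsf1a, Il6ra, Hbegf, Areg, Ereg, Tgfa and Notch1 had none within 10 kb. Matrix substrates had a peak in 6 of 15 cases, where similar lengths give 5.01: Vcan (2.16 kb), Col1a2 (2.34 kb), Fbn1, Fbn2, Ltbp1 and Dcn. Acan, the aggrecan gene, had none.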

How the data were processed

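RelA ChIP-seq and input libraries of mouse fibroblasts were described by 8 labels, and the deposited values are the start and end of 9829 peaks in base pairs, with no value per sample. The submitters' processing notes name cutadapt 1.9.1, Bowtie2 2.3, SAMtools, Picard 1.13, deepTools, MACS2 and mm10. The step each tool served, the threshold for a peak, how input entered and whether libraries were pooled were not given in the sources used here. Cells were fixed with disuccinimidyl glutarate before formaldehyde, per the labels' protocols, and such double fixation can also retain indirect contacts.

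Starts were converted to positions counted from 1. The 9688 peaks on chromosomes 1 to 19 were related by their centre to protein-coding genes of the RefSeq table (GRCm38.p6), leaving out genes on patches. The gene table has no strand, and start sites came from the RefSeq promoter table, which holds 32 of the 58 genes. Other genes of similar length were all non-member genes within a factor of 1.2, with nothing drawn at random. No enrichment test was run, and Wilson 95% intervals cover counting error only. Members, role lists and partner lists were chosen with earlier results of these data known. Members with a peak within 10 or 50 kb, the 5 longest and the 5 farthest of the rest, and partners within 10 kb are named by rule. The remaining members and some partners without such a peak are named for completeness. The counts at gene ends, the split at 50 kb and the ratios of single subfamilies were added after the peaks had been seen. Motif and distance counts used Python 3.11.15, numpy 2.4.6, pandas 2.3.3 and scipy 1.17.1. The counts of peaks within a window of a gene and the distances to genes were checked on simulated peaks at known places. The motif search, the counts at gene ends and start sites and the similar-length shares were not checked in that way. A planned look at the zinc-binding motif of the proteins was not run, since no protein sequences were used here. None of the 34 listed member promoters overlapped a peak, so the promoters printed were chosen after the values were seen.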

Additional observations from a re-analysis of the deposited data

How the results depend on the processing

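The 24 genes within 10 kb ranged from 19 to 24 under the windows of 1 and 5 kb, any overlap, wider peaks, merged peaks, the nearest gene only (without Adam8 and Adamts19), inside only, and neighbours counted once. Counting only peaks within 10 kb of a gene end, on its inner or outer side, gave 11 genes. The 35 genes within 50 kb ranged from 24 to 35. The ratio to genes of similar length ranged from 1.24 to 1.58 for all members at 10 kb or less and from 1.16 to 1.18 at 50 kb. For Adam genes it ranged from 0.879 to 1.16 and was above 1 within 1 kb (1.01), with wider peaks (1.08) and for peaks inside the gene (1.16). For Adamts genes it ranged from 1.54 to 2.16, the highest with wider peaks only. Adam minus Adamts stayed negative, from -47.8 to -18.4 points, the smallest gap without the testis and epididymis list, where its interval includes 0. Within 5 kb of the start site there were 2 genes in place of 0, and within 2 and 5 kb of a gene end 4 and 8 genes in place of 2. The same-chromosome comparison, the members without chromosome 8, the ratio for peaks inside the gene and all alternatives for single subfamilies and gene ends were chosen after seeing the data. The cause of these shifts was not tested, beyond the smaller or larger stretch of sequence counted. No paired analysis was possible because the peak list has no columns per sample, and for the same reason no library could be left out. Without heights or depth, a gene with no peak here is one with no peak listed, and weaker binding was not detectable.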
